A study of Mus musculus with 16 samples.

Results

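Heat shock proteins and DNAJ cochaperones are the main families of molecular chaperones, and 73 genes that encode them were followed across the mouse aorta libraries of a kidney disease and diet experiment. The members were taken by name: every protein-coding gene whose symbol began with Hsp or Dnaj followed by lower case letters and digits, which matched 75 genes. Of these, 2 were left out, Hspg2, which encodes the matrix proteoglycan perlecan, and Hspbap1, which encodes a protein named for binding a small heat shock protein. The 73 members were among 54532 genes in the deposited count table, 22046 of them protein-coding. By family they were 7 small heat shock proteins, 11 HSP70 proteins, 3 HSP110 proteins, 3 HSP90 proteins, 2 chaperonin subunits, 4 DNAJA, 13 DNAJB and 28 DNAJC proteins, and 2 genes (Hspb11 and Hspbp1) that carry the prefix without belonging to a chaperone family.

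The data were bulk RNA sequencing of whole aortas from male C57BL/6J mice, 12 weeks old at surgery, with 16 libraries in 4 groups of 4 mice. Sham mice kept their kidneys and were fed a high-phosphorus, low-protein diet (HPi-Lp, 2% phosphorus and 2.5% protein). The other mice lost most of their kidney tissue in the 5/6 nephrectomy (5/6 Nx), a surgical model of chronic kidney disease, and were fed the same HPi-Lp diet, a diet high in both components (HPi-Hp, 2% phosphorus and 18% protein) or a diet low in both (LPi-Lp, 0.3% phosphorus and 2.5% protein). By the labels the diets lasted 30 days, and they name no transgene, deletion or drug in any of the 4 groups. The 5/6 Nx-HPi-Lp group thus differed from Sham in the surgery alone, from 5/6 Nx-HPi-Hp in dietary protein alone and from 5/6 Nx-LPi-Lp in dietary phosphorus alone. These 3 comparisons share the 5/6 Nx-HPi-Lp libraries. Each of the other diet groups was also set against Sham, but there the surgery and 1 diet component changed together; the comparisons with Sham share its libraries.

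Chaperones bind unfolded stretches of other proteins and keep them from clumping. Small heat shock proteins hold such proteins without using ATP and are abundant in muscle, where several of them associate with actin and other filaments. HSP70 proteins fold their clients in cycles of ATP hydrolysis: a DNAJ protein brings the client and starts hydrolysis, and HSP110 proteins release the nucleotide. HSP90 proteins finish the folding of kinases and steroid receptors, and the chaperonin folds proteins inside the mitochondrion. Heat shock factor 1 (Hsf1) switches on the inducible members through heat shock elements in their promoters, and the unfolded protein response switches on those of the endoplasmic reticulum (ER).

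Levels of a gene are given below as CPM, read counts divided by library size and scaled between the 16 libraries by the trimmed mean of M-values (TMM), for replicates 1 to 4 of a group in that order. Log2 fold changes are those of the first group named against the second, with a standard error (SE). A member was called when its Benjamini-Hochberg adjusted p, over all genes tested, was at most 0.05 in edgeR's quasi-likelihood test and its change was at least 2-fold; "any fold" drops the second condition. The test was run on the 8 libraries of each comparison, and each was repeated 8 times with 1 library left out.

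Several libraries stood apart. Sham replicate 2 had the highest level of its group for 32 of the 60 members that averaged at least 5 CPM there, by more than 1.5 times the mean of the other 3 Sham libraries for 6 of them, so calls at 2-fold that rest on it are given with and without it, and counts at any fold are repeated without it. Of the passing values against Sham followed here, 22 no longer passed without Sham replicate 2. Without replicates 1, 3 and 4 these were 15, 11 and 11. Such a fit has 1 library fewer, so a lost pass can come with a nearly unchanged fold change. Among the 5/6 Nx-HPi-Hp libraries, replicate 4 was highest for 31 of 59 members. Sequencing depth was 20795568 to 24204348 counts in Sham, 15013203 to 57276915 in 5/6 Nx-HPi-Lp, 13659525 to 18186113 in 5/6 Nx-HPi-Hp and 13738098 to 21547424 in 5/6 Nx-LPi-Lp. In 5/6 Nx-HPi-Lp, replicates 1 to 4 had 15665005, 57276915, 46499243 and 15013203 counts. The part of depth in differences between those libraries was not tested. Mitochondrially encoded genes took 5.19% ± 1.01 of the counts in Sham against 23.5% ± 3.36, 20.0% ± 8.78 and 17.4% ± 2.83 in the 3 nephrectomy groups (SD, n = 4). All 8 smooth muscle markers were detected, so the libraries held aortic smooth muscle RNA, but their summed level fell from 22868 ± 1723 CPM in Sham to 3672 ± 1511 in 5/6 Nx-HPi-Lp. Of 6 macrophage markers, 6 were called higher in 5/6 Nx-HPi-Lp than in each other group, with summed levels of 236 ± 41.7 CPM in Sham and 1367 ± 699 in 5/6 Nx-HPi-Lp, and of 6 fibroblast markers 3 were called higher than in Sham and 5 than in either other diet (2107 ± 443 CPM in Sham, 6529 ± 4305 in 5/6 Nx-HPi-Lp); the part of these cells in the differences of 5/6 Nx-HPi-Lp was not tested. Markers of fat, brown fat, heart muscle, skeletal muscle and sympathetic neurons also varied between libraries, and they are given beside results that they moved with in part. In bulk tissue, fewer cells of a type and less RNA per cell cannot be told apart.

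In Sham aorta the leading members per transcript length were Hspb1 at 351 ± 60.99 FPKM (fragments scaled to transcript length and library size), Hsp90ab1 at 326 ± 21.7, Hspa8 at 200.03 ± 29.5 and Hspb7 at 180.3 ± 42.5 (SD, n = 4). Hspb1 and Hsp90ab1 did not differ beyond their spread, nor did Hspa8 and Hspb7. In the 5/6 Nx-HPi-Lp aorta Hsp90ab1 led at 282 ± 21.7 FPKM, followed by Hspa8 at 186 ± 37.5 and Hspb1 at 160.4 ± 38.8, while Hspb7 stood at 72.2 ± 14.7. Hspb6 went from 84.6 ± 11.8 FPKM, the 7th highest level in Sham, to 11.4 ± 4.67, the 28th. All members together took 0.807% ± 0.0818 of the counts that were not mitochondrially encoded in Sham, 0.691% ± 0.0646 in 5/6 Nx-HPi-Lp, 0.629% ± 0.0750 in 5/6 Nx-HPi-Hp and 0.712% ± 0.0646 in 5/6 Nx-LPi-Lp.

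The most members were called between 5/6 Nx-HPi-Lp and Sham. Over all genes tested, that comparison also had the most calls in each direction, 1186 lower and 2480 higher. Between 5/6 Nx-HPi-Lp and Sham, 65 members passed the filter on low counts, of which 12 were called lower and 3 higher, where 7.18% of the 16513 genes tested were called lower and 15.0% higher. With any fold 22 members were lower and 7 higher, beside 20.2% and 22.7% of all genes. The members' median log2 fold change was -0.15, against -0.0027 over all genes tested. Against 5/6 Nx-HPi-Hp, 5 of 67 members were called lower and 0 higher (all genes 3.11% and 5.01%); with any fold these were 6 and 1 (5.95% and 7.09%). Against 5/6 Nx-LPi-Lp, 4 of 67 were called lower and 0 higher (3.98% and 7.90%), and with any fold 11 and 3 (8.96% and 11.1%). The 0 higher by edgeR became 2 and 1 in these diet comparisons at an unadjusted p under 0.05, DESeq2 called 1 in each and limma 0. The medians of these comparisons were 0.0056 and -0.19 for the members, against 0.0098 and -0.016 for all genes tested. In 5/6 Nx-HPi-Hp against Sham, 6 of 66 members were called lower and 3 higher (all genes 2.75% and 9.41%), and with any fold 20 and 7 (13.9% and 17.5%). In 5/6 Nx-LPi-Lp against Sham, 5 of 67 were called lower and 8 higher (2.08% and 8.79%), and with any fold 18 and 15 (14.5% and 17.3%). Without Sham replicate 2 the members lower and higher with any fold were 19 and 5 in 5/6 Nx-HPi-Lp, 5 and 3 in 5/6 Nx-HPi-Hp and 8 and 13 in 5/6 Nx-LPi-Lp, each against Sham. The share of all genes that passed in those fits, which had 1 library fewer, is not given here. Whether the members' counts, here and below, fell more than those of all genes was not tested.

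**Figure D1:**
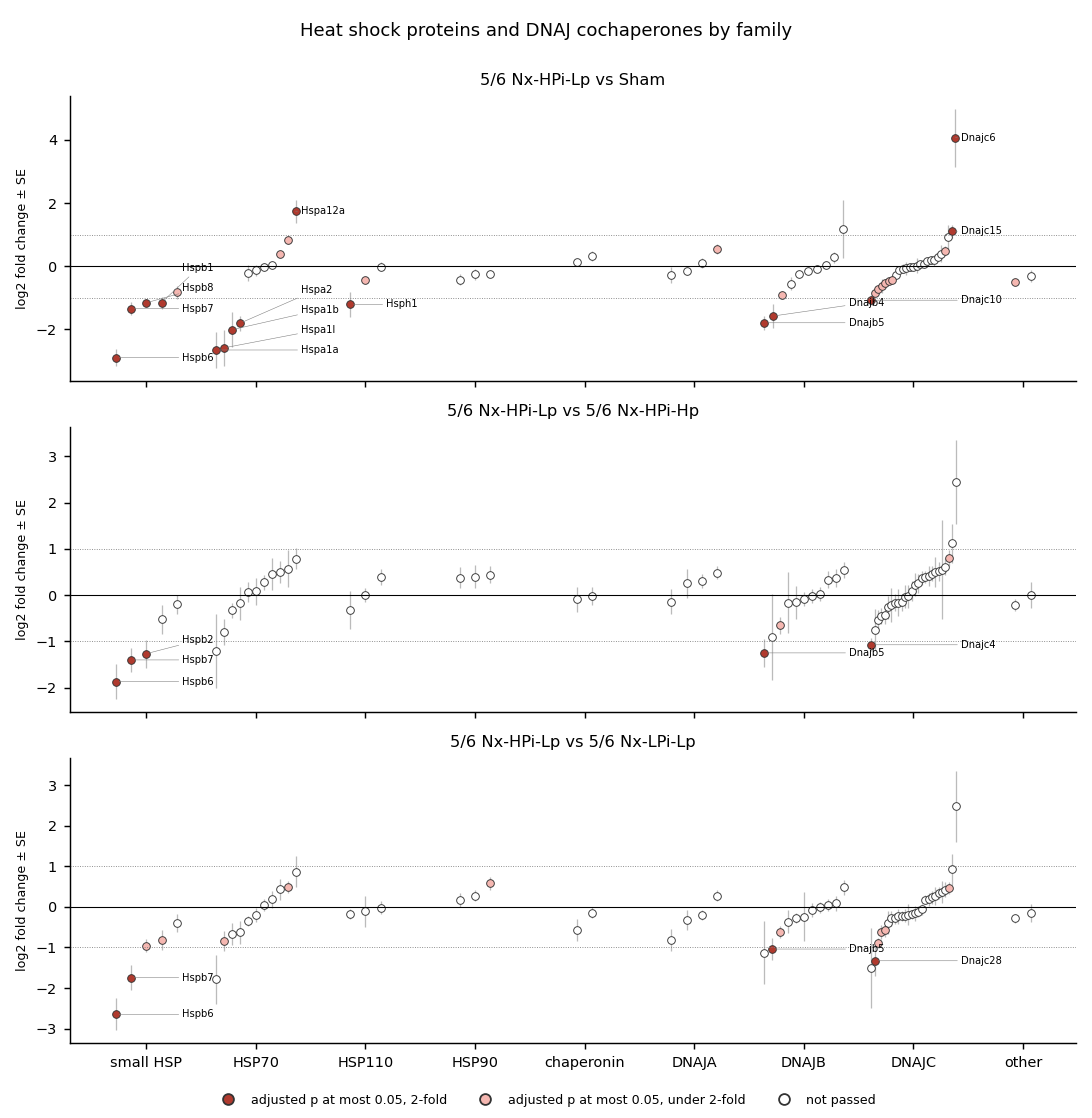
Log2 fold change ± SE of every tested member, by family (horizontal), in the 3 comparisons of 5/6 Nx-HPi-Lp; dark points were called at 2-fold, light red points passed the adjusted p alone and open points passed neither, and dotted lines mark a 2-fold change. The small heat shock proteins lay at or below 0 in all 3 panels, while Dnajc6 and Hspa12a were the highest members against Sham.

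Among the small heat shock proteins, Hspb6 and Hspb7 were lower in the 5/6 Nx-HPi-Lp aorta than in every other group. Of the 5 tested members, 4 were called lower against Sham and 5 were lower with any fold (all genes 7.18% and 20.2%). Against 5/6 Nx-HPi-Hp 3 were called lower (all genes 3.11%). Against 5/6 Nx-LPi-Lp 2 were called lower and 4 were lower with any fold (all genes 3.98% and 8.96%). The family's summed level was 1256 ± 178 CPM in Sham, 489.9 ± 94.2 in 5/6 Nx-HPi-Lp, 979 ± 296 in 5/6 Nx-HPi-Hp and 1238 ± 458 in 5/6 Nx-LPi-Lp (SD, n = 4).

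Hspb6 (mm10 chr7:30552178-30555443), the small heat shock protein known as Hsp20, is phosphorylated when smooth muscle relaxes. Its level was 176, 207, 229.7 and 168 CPM in Sham and 18.9, 28.6, 41.8 and 17.6 in 5/6 Nx-HPi-Lp. It was 97.2, 89.04, 46.1 and 149 CPM in 5/6 Nx-HPi-Hp and 91.2, 284, 122 and 172 in 5/6 Nx-LPi-Lp. Every 5/6 Nx-HPi-Lp library lay below every library of the other 3 groups. The level was 7.49-fold lower than in Sham, with a log2 fold change of -2.91 ± 0.26 (SE, adjusted p = 4.99e-05). Against 5/6 Nx-HPi-Hp the log2 fold change was -1.87 ± 0.38 (adjusted p = 0.0147) and against 5/6 Nx-LPi-Lp it was -2.65 ± 0.39 (adjusted p = 0.00340). The call against 5/6 Nx-HPi-Hp was lost without 5/6 Nx-HPi-Lp replicate 4, at -1.72 (adjusted p = 0.0518); all other fits with 1 library left out kept it. Hspb6 was also called lower in 5/6 Nx-HPi-Hp than in Sham, at -1.02 ± 0.30 (adjusted p = 0.0295), but in only 2 of 8 such fits.

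Hspb7 (mm10 chr4:141420779-141425311), a small heat shock protein of heart and vessel that binds filamin, also had its lowest levels in 5/6 Nx-HPi-Lp. It stood at 345, 493, 631 and 534 CPM in Sham and 225, 160.01, 247 and 177 in 5/6 Nx-HPi-Lp. In 5/6 Nx-HPi-Hp it was at 545, 526, 344 and 682 CPM and in 5/6 Nx-LPi-Lp at 382, 1059, 489 and 767. The 5/6 Nx-HPi-Lp libraries again lay below all others, and the other diets overlapped with Sham. The log2 fold change was -1.35 ± 0.20 against Sham (adjusted p = 6.77e-04), -1.40 ± 0.25 against 5/6 Nx-HPi-Hp (adjusted p = 0.00991) and -1.75 ± 0.31 against 5/6 Nx-LPi-Lp (adjusted p = 0.00642), and each call held in 8 of 8 fits with 1 library left out. 5/6 Nx-LPi-Lp replicate 2, the library with the highest Hspb7, also had the highest sum of 7 heart muscle markers. That sum was 129, 8445, 62.7 and 133 CPM across the group's replicates 1 to 4. In the same order 7 skeletal muscle markers summed to 12.6, 397, 8.74 and 235 CPM, highest in replicates 2 and 4, as Hspb7 was. The part of heart and skeletal muscle in these values was not tested. The comparison gave -1.48 without replicate 2 (adjusted p = 0.0116) and -1.66 without replicate 4 (adjusted p = 0.0181). Hspb6, Hspb8 and Hspb2 were highest in replicate 2 of the group as well. Without it, 5/6 Nx-HPi-Lp against 5/6 Nx-LPi-Lp gave -2.31 for Hspb6, -0.79 for Hspb8 and -0.67 for Hspb2 (adjusted p = 0.00599 and 0.00779 for the first pair), and Hspb2 did not pass.

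Hspb8 and Hspb1 were also called lower against Sham. Hspb8, the partner of Bag3 in clearing damaged filament proteins, was at 153, 192, 186 and 152 CPM in Sham, 83.1, 73.97, 80.6 and 75.3 in 5/6 Nx-HPi-Lp, 94.5, 72.6, 68.1 and 118 in 5/6 Nx-HPi-Hp and 119, 206, 139.6 and 136 in 5/6 Nx-LPi-Lp. It was 2.24-fold lower in 5/6 Nx-HPi-Lp than in Sham (-1.17 ± 0.11, adjusted p = 5.94e-05) and lower than in 5/6 Nx-LPi-Lp by less than 2-fold (-0.95 ± 0.17, adjusted p = 0.00641), with no overlap in either case. Against 5/6 Nx-HPi-Hp it did not pass (-0.20 ± 0.20, adjusted p = 0.515). Hspb1, which binds actin and intermediate filaments, was at 299, 442, 327 and 384 CPM in Sham, 179, 126, 218 and 145 in 5/6 Nx-HPi-Lp, 191, 180.4, 169.5 and 399 in 5/6 Nx-HPi-Hp and 147, 235, 244 and 249.8 in 5/6 Nx-LPi-Lp. Only its difference from Sham passed at 2-fold in a comparison of 5/6 Nx-HPi-Lp (-1.16 ± 0.19, adjusted p = 0.00110); 5/6 Nx-HPi-Hp replicate 4 reached the Sham range. The values of 5/6 Nx-HPi-Lp against 5/6 Nx-HPi-Hp (-0.53 ± 0.32, adjusted p = 0.286) and 5/6 Nx-LPi-Lp (-0.40 ± 0.22, adjusted p = 0.220) did not pass.

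Hspb2, which binds the myotonic dystrophy kinase, was at 28.96, 23.9, 26.1 and 25.6 CPM in Sham, 20.3, 10.4, 16.96 and 12.9 in 5/6 Nx-HPi-Lp, 19.7, 46.7, 42.4 and 34.98 in 5/6 Nx-HPi-Hp and 19.4, 36.1, 25.6 and 25.2 in 5/6 Nx-LPi-Lp. It passed with any fold against Sham (-0.83 ± 0.20, adjusted p = 0.00905) and 5/6 Nx-LPi-Lp (-0.82 ± 0.25, adjusted p = 0.0427) and was called at 2-fold against 5/6 Nx-HPi-Hp (-1.27 ± 0.30, adjusted p = 0.0252), where 1 library of each group overlapped and the call held in 3 of 8 fits with 1 library left out. Hspb2 shares 1030 bases with Cryab, a small heat shock protein gene with a higher count on the opposite strand, and whether counting used strand is not given in the sources used here, so the value of Hspb2 is uncertain. Hspb6 shares 122 bases with Proser3 in the same way, whose mean count of 279.6 was below that of Hspb6 at 2562.4.

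**Figure D2:**
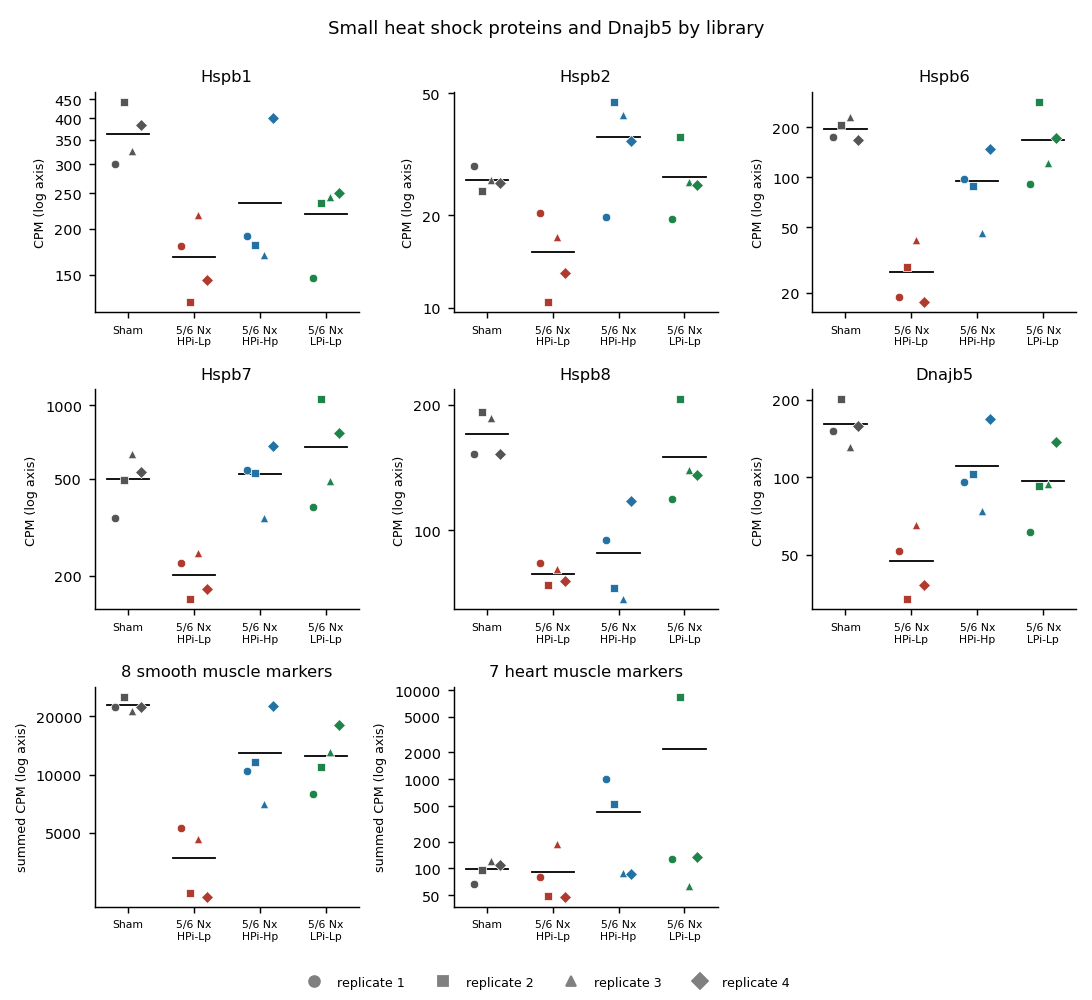
Level in CPM (log axis) of the small heat shock proteins and Dnajb5 in each library of the 4 groups; the marker shape gives the replicate and the black line the group mean. The 5/6 Nx-HPi-Lp libraries of Hspb6, at 17.6 to 41.8 CPM, and of Hspb7, at 160.01 to 247 CPM, lay below every library of the other groups.

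Dnajb5 (mm10 chr4:42949814-42959425), an HSP70 cochaperone known in heart muscle for binding the histone deacetylase HDAC4, followed the small heat shock proteins. It was at 151, 200.2, 131 and 158 CPM in Sham and 51.9, 33.7, 65.6 and 38.3 in 5/6 Nx-HPi-Lp. Its level was 95.6, 103, 73.9 and 168 CPM in 5/6 Nx-HPi-Hp and 61.1, 92.7, 94.1 and 137 in 5/6 Nx-LPi-Lp, the latter with 1 library inside the 5/6 Nx-HPi-Lp range. The log2 fold changes were -1.80 ± 0.22 against Sham (adjusted p = 2.18e-04), -1.25 ± 0.30 against 5/6 Nx-HPi-Hp (adjusted p = 0.0262) and -1.04 ± 0.27 against 5/6 Nx-LPi-Lp (adjusted p = 0.0281). The call against Sham held in 8 of 8 fits with 1 library left out, and each of the other two in 4 of 8.

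The summed smooth muscle markers, like these genes, had their lowest mean in 5/6 Nx-HPi-Lp. In the other diets the markers averaged 12906 CPM (5/6 Nx-HPi-Hp) and 12469 CPM (5/6 Nx-LPi-Lp), against 22868 in Sham. Hspb6, Hspb8, Hspb1 and Dnajb5 also had lower means there than in Sham, but Hspb7 and Hspb2 did not. The Hspb7 means were 501 CPM in Sham, 524 in 5/6 Nx-HPi-Hp and 674 in 5/6 Nx-LPi-Lp. Of the 8 markers, 8 were called lower in 5/6 Nx-HPi-Lp than in Sham, 7 lower than in 5/6 Nx-HPi-Hp and 8 lower than in 5/6 Nx-LPi-Lp, with median log2 fold changes of -2.55, -1.69 and -1.83. Their summed level was 21342 to 25339 CPM in Sham, 2333 to 5273 in 5/6 Nx-HPi-Lp, 7035 to 22571 in 5/6 Nx-HPi-Hp and 7906 to 18055 in 5/6 Nx-LPi-Lp, and 0 of the 8 were at 0 in a group. The fall of Hspb6 against Sham was near that of the markers' median and those of Hspb7, Hspb8 and Hspb1 were smaller. The part of smooth muscle in these results was not tested.

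Hsf1 is the transcription factor that switches on heat-inducible genes. Hspa1a, Hspa1b, Hsph1, Dnajb4 and Dnajb1 had their highest group means in Sham, while those of Hspd1, Hspe1 and Dnaja1 were in nephrectomy groups. Promoters that Hsf1 binds carry heat shock elements, in which blocks of GAA alternate with blocks of TTC at a spacing of 2 bases. The search was for GAANNTTC or TTCNNGAA, each of which reads the same on both strands, in the 300 bases from 250 before to 50 after each RefSeq start of the GRCm38.p6 build. At least 1 such element was present in 15.1% of 32851 promoters and in 18 of the 76 promoters of the 59 members that matched. These were promoters of 16 members, of which 14 were tested between 5/6 Nx-HPi-Lp and Sham. Called lower were 8, Hspa1a, Hspa1b, Hsph1, Dnajb4, Hspb1, Hspb6, Hspb8 and Dnajc10, where 7.18% of all genes were, with or without an element. Dnajc27 was lower by less than 2-fold, and Dnaja1, Dnaja4, Dnajb6, Hspd1 and Hspe1 did not pass. The call of Hsph1 was lost without Sham replicate 2, and the Hspb8 element lies after its RefSeq start. Against each other diet only 1 of the 14, Hspb6, was called lower (all genes 3.11% and 3.98%). Against Sham 5 were called lower in 5/6 Nx-HPi-Hp and 4 in 5/6 Nx-LPi-Lp (2.75% and 2.08%), where 2 were higher with any fold (17.3%). Stretches before a RefSeq start of 5 of the genes called lower, chosen after their values were seen, are shown 5′ to 3′ with the elements in capitals.
Hspa1a (chr17:34972157-34972276, minus strand): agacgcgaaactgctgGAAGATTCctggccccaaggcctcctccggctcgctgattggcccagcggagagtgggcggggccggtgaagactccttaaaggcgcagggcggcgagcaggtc
Hspa1b (chr17:34959239-34959358, minus strand): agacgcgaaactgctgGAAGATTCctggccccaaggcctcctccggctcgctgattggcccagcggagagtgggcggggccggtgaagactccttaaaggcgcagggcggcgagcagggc
Dnajb4 (chr3:152193846-152193965, minus strand): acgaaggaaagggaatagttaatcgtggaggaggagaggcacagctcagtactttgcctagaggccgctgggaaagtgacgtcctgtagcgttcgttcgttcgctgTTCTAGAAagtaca
Hspb1 (chr5:135887799-135887918, plus strand): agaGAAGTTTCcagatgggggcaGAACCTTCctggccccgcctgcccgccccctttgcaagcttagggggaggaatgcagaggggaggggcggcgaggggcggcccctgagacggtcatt
Hsph1 (chr5:149636351-149636380, minus strand): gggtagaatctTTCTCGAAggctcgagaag
Hspa1a and Hspa1b were identical at 119 of 120 positions here, with the element 104 to 97 bases before the start in both, and Hspb1 held 2 elements between 117 and 90 bases before its start. Most of the Hsph1 stretch lies inside that gene's deposited coordinates (chr5:149614287-149636376), and further elements, not shown, lie after its RefSeq start. The whole Dnajb4 stretch lies inside the deposited coordinates of Dnajb4 (chr3:152178511-152210302), as the Hspb6 element, not shown, does inside those of Hspb6. The genes Hspa1a and Hspa1b are near-identical copies, so reads could be split between them and their separate values are uncertain. A match describes letters and not a bound site. A run of CC, 6 bases of A or T, and GG, which is the CArG box bound by serum response factor, was present in 1.63% of all promoters and among the members in that of Dnajc16 alone.

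Hspa1a (mm10 chr17:34969190-34972156) and Hspa1b (chr17:34956436-34959238) encode the HSP70 proteins made after heat and other stress. Hspa1a was at 34.5, 191, 44.3 and 34.2 CPM in Sham, 12.2, 10.3, 17.1 and 9.34 in 5/6 Nx-HPi-Lp, 17.3, 16.3, 18.7 and 31.5 in 5/6 Nx-HPi-Hp and 13.6, 24.7, 23.3 and 25.6 in 5/6 Nx-LPi-Lp. Hspa1b was at 33.9, 203, 49.8 and 36.7 CPM in Sham, 17.1, 21.8, 25.5 and 17.4 in 5/6 Nx-HPi-Lp, 17.7, 18.9, 14.8 and 25.2 in 5/6 Nx-HPi-Hp and 18.02, 26.97, 24.8 and 23.2 in 5/6 Nx-LPi-Lp. Sham replicate 2 stood 5.06 times above the mean of the other 3 Sham libraries for both genes, and even the lowest Sham library was above every nephrectomy library. The log2 fold change of Hspa1a against Sham was -2.66 ± 0.57 in 5/6 Nx-HPi-Lp (adjusted p = 0.00450), -1.83 ± 0.55 in 5/6 Nx-HPi-Hp (adjusted p = 0.0325) and -1.78 ± 0.55 in 5/6 Nx-LPi-Lp (adjusted p = 0.0350). Without Sham replicate 2 it was -1.68 (adjusted p = 0.00101), -0.85 (adjusted p = 0.0510) and -0.78 (adjusted p = 0.0383), so only the first remained past 2-fold. For Hspa1b the 3 values were -2.02 ± 0.55, -2.06 ± 0.55 and -1.78 ± 0.54 (adjusted p = 0.0142, 0.0211 and 0.0326) with all libraries, and -1.03, -1.07 and -0.78 (adjusted p = 0.00378, 0.0394 and 0.0226) without that library.

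Without 5/6 Nx-LPi-Lp replicate 2 neither Hspa1a nor Hspa1b passed in 5/6 Nx-LPi-Lp against Sham (adjusted p = 0.0601 and 0.0546). Among the diets, Hspa1a was lower in 5/6 Nx-HPi-Lp than in 5/6 Nx-LPi-Lp by less than 2-fold (-0.84 ± 0.25, adjusted p = 0.0421; 0.0833 without that library) and did not pass against 5/6 Nx-HPi-Hp (-0.81 ± 0.28, adjusted p = 0.0864). Hspa1b passed against neither (0.06 ± 0.22 and -0.20 ± 0.18). Hspa1l, a close relative next to them on chromosome 17 that is known from testis, was low throughout, at 2.83, 4.46, 2.30 and 3.31 CPM in Sham and 0.768, 0.110, 0.725 and 0.653 in 5/6 Nx-HPi-Lp. It was called lower against Sham (-2.60 ± 0.57, adjusted p = 0.00499), with 8 of 8 fits keeping the call.

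Hspa2, an HSP70 protein best known from sperm development, was lower in all nephrectomy groups and did not lean on Sham replicate 2. Its level was 56.9, 60.99, 76.7 and 59.3 CPM in Sham, 23.5, 11.5, 23.1 and 16.003 in 5/6 Nx-HPi-Lp, 20.3, 15.2, 11.96 and 34.4 in 5/6 Nx-HPi-Hp and 17.4, 29.4, 30.7 and 35.8 in 5/6 Nx-LPi-Lp, so that the lowest Sham library was above all 12 others. The log2 fold change against Sham was -1.82 ± 0.23 in 5/6 Nx-HPi-Lp (adjusted p = 2.45e-04), -1.61 ± 0.29 in 5/6 Nx-HPi-Hp (adjusted p = 0.00956) and -1.15 ± 0.20 in 5/6 Nx-LPi-Lp (adjusted p = 0.00414). The values of 5/6 Nx-HPi-Lp against the other diets, -0.18 ± 0.36 and -0.63 ± 0.28, did not pass (adjusted p = 0.765 and 0.137).

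Dnajb4 and Dnajb1 are the DNAJ partners of inducible HSP70, and Hsph1 (Hsp105) is its nucleotide exchange factor. Dnajb4 was at 107, 288, 128 and 94.1 CPM in Sham, 60.03, 40.5, 74.6 and 35.99 in 5/6 Nx-HPi-Lp, 38.6, 58.1, 35.2 and 97.3 in 5/6 Nx-HPi-Hp and 38.5, 88.4, 78.9 and 63.6 in 5/6 Nx-LPi-Lp. Against Sham its log2 fold change in 5/6 Nx-HPi-Lp was -1.59 ± 0.37 (adjusted p = 0.00713) with all libraries and -1.12 (adjusted p = 0.0109) without Sham replicate 2. Its calls in the other nephrectomy groups, at -1.41 in 5/6 Nx-HPi-Hp and -1.18 in 5/6 Nx-LPi-Lp, were lost without that library (-0.94 and -0.69, adjusted p = 0.0834 and 0.0873).

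Hsph1 was at 95.1, 161, 72.2 and 81.1 CPM in Sham, 28.7, 32.7, 88.1 and 31.3 in 5/6 Nx-HPi-Lp, 32.8, 61.1, 44.7 and 83.04 in 5/6 Nx-HPi-Hp and 27.95, 52.8, 62.7 and 50.3 in 5/6 Nx-LPi-Lp. Its call against Sham in 5/6 Nx-HPi-Lp (-1.22 ± 0.39, adjusted p = 0.0293) rested on few libraries: 5/6 Nx-HPi-Lp replicate 3 lay inside the Sham range, 3 of 8 fits with 1 library left out kept the call, and without Sham replicate 2 the value was -0.94 (adjusted p = 0.0915). Dnajb1 (Hsp40) was at 44.7, 74.98, 49.8 and 36.3 CPM in Sham and 27.1, 39.96, 41.3 and 35.4 in 5/6 Nx-HPi-Lp and did not pass (-0.56 ± 0.21, adjusted p = 0.0581); it was at 33.3, 40.4, 36.1 and 33.4 CPM in 5/6 Nx-HPi-Hp and 27.1, 34.3, 41.3 and 31.5 in 5/6 Nx-LPi-Lp. Leaving out Sham replicate 2 lowered the members called from 15 to 14 in 5/6 Nx-HPi-Lp, from 9 to 4 in 5/6 Nx-HPi-Hp and from 13 to 9 in 5/6 Nx-LPi-Lp, each against Sham. The share of all genes called in these fits is not given here.

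**Figure D3:**
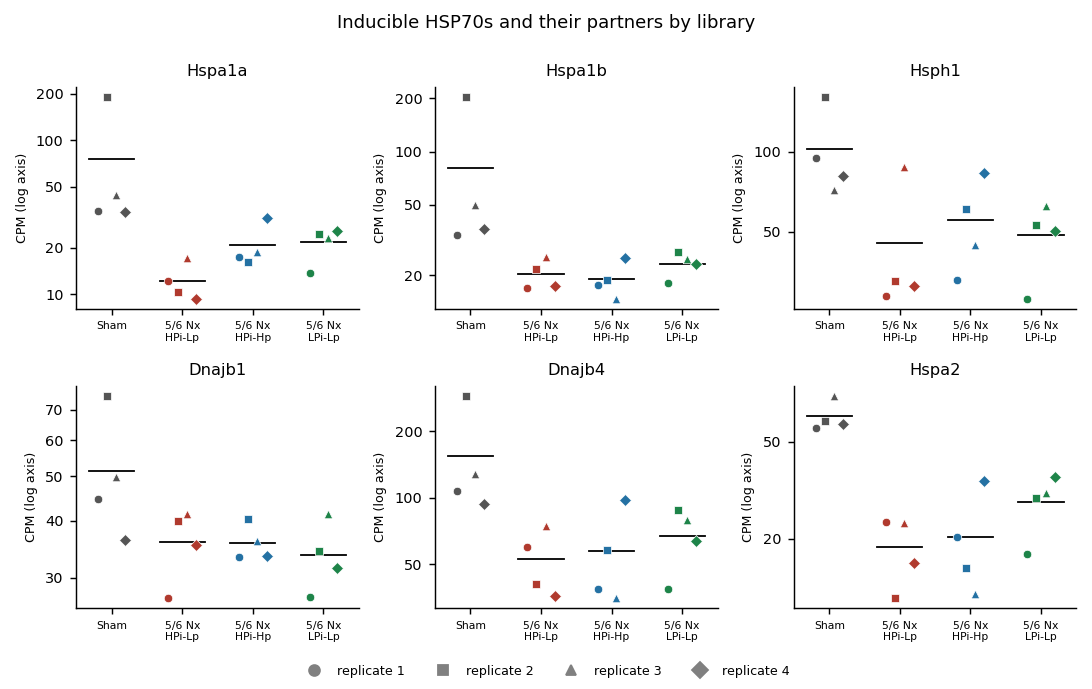
Level in CPM (log axis) of heat-inducible HSP70 genes, Hspa2 and their DNAJ and HSP110 partners in each library; the marker shape gives the replicate and the black line the group mean. Sham replicate 2 stood at 191 CPM for Hspa1a and 203 CPM for Hspa1b, while the other Sham libraries of both genes were at 33.9 to 49.8 CPM.

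The constitutive cytosolic chaperones changed less. Hspa8 (Hsc70), the HSP70 protein of unstressed cells, was at 802, 1034, 737 and 879 CPM in Sham, 663, 837, 1044 and 693 in 5/6 Nx-HPi-Lp, 495, 456, 551 and 744 in 5/6 Nx-HPi-Hp and 514, 703, 884 and 705 in 5/6 Nx-LPi-Lp. The groups overlapped and 5/6 Nx-HPi-Lp did not pass against any of them (adjusted p = 0.535, 0.183 and 0.558), while 5/6 Nx-HPi-Hp was lower than Sham by less than 2-fold (-0.61 ± 0.21, adjusted p = 0.0454), though not without Sham replicate 2 (-0.53, adjusted p = 0.119). Hspa4, an HSP110 protein, was at 139, 163, 134 and 140.4 CPM in Sham and 95.9, 107, 115 and 119.5 in 5/6 Nx-HPi-Lp, a fall of less than 2-fold with no overlap (-0.44 ± 0.11, adjusted p = 0.00800). It was at 102, 95.5, 106 and 123 CPM in 5/6 Nx-HPi-Hp and 123, 116, 119 and 130.2 in 5/6 Nx-LPi-Lp. Hspa4l, its relative, ranged from 13.8 to 24.5 CPM over the 16 libraries, with log2 fold changes of -0.02 ± 0.13, 0.39 ± 0.17 and -0.01 ± 0.15 in 5/6 Nx-HPi-Lp against the other 3 groups in the usual order (adjusted p = 0.935, 0.150 and 0.961). Dnaja1, a DNAJ partner of Hspa8, was at 82.9, 124, 85.5 and 75.05 CPM in Sham, 88.3, 93.1, 122 and 99.5 in 5/6 Nx-HPi-Lp, 64.02, 70.3, 77.2 and 71.4 in 5/6 Nx-HPi-Hp and 80.4, 80.9, 93.5 and 75.3 in 5/6 Nx-LPi-Lp and passed in none of the 3 comparisons of 5/6 Nx-HPi-Lp (adjusted p = 0.694, 0.0575 and 0.180).

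The 3 HSP90 genes had their highest group means in Sham. With any fold 0 passed in 5/6 Nx-HPi-Lp, 2 in 5/6 Nx-HPi-Hp and 3 in 5/6 Nx-LPi-Lp, all lower than Sham, beside 20.2%, 13.9% and 14.5% of all genes; without Sham replicate 2 these counts were 0, 0 and 1. By edgeR at an unadjusted p under 0.05 the first of these counts was 1, and DESeq2 gave 2 (limma 0). Hsp90ab1, the constitutive form, was at 959, 1079.8, 928 and 961 CPM in Sham and 891, 784, 839 and 902 in 5/6 Nx-HPi-Lp, which did not pass (-0.24 ± 0.11, adjusted p = 0.110). It was at 642, 519.9, 579.6 and 727 CPM in 5/6 Nx-HPi-Hp and 622, 734, 704 and 720.1 in 5/6 Nx-LPi-Lp, both lower than Sham by less than 2-fold and without overlap (-0.66 ± 0.17 and -0.48 ± 0.12, adjusted p = 0.0187 and 0.0145), and neither passed without Sham replicate 2 (-0.63 and -0.44, adjusted p = 0.0553 and 0.0504). 5/6 Nx-HPi-Lp itself did not pass against them (0.44 ± 0.19 and 0.28 ± 0.14, adjusted p = 0.145 and 0.171), so the order of the 3 nephrectomy groups is not shown. Hsp90aa1, the inducible form, was at 198, 299, 188 and 227 CPM in Sham, 189.96, 143, 184 and 181 in 5/6 Nx-HPi-Lp, 118, 114, 106 and 188 in 5/6 Nx-HPi-Hp and 132, 128, 169 and 184 in 5/6 Nx-LPi-Lp. Its log2 fold change against Sham was -0.43 ± 0.17 (adjusted p = 0.0629), -0.78 ± 0.23 (adjusted p = 0.0286) and -0.56 ± 0.18 (adjusted p = 0.0392) in the 3 nephrectomy groups in that order. Leaving out Sham replicate 2 gave, for 5/6 Nx-HPi-Hp and then for 5/6 Nx-LPi-Lp, -0.64 and -0.41 (adjusted p = 0.0808 and 0.108).

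Of the 9 chaperones of the ER, 2 were lower than in Sham with any fold in 5/6 Nx-HPi-Lp, 5 in 5/6 Nx-HPi-Hp and 6 in 5/6 Nx-LPi-Lp, beside 20.2%, 13.9% and 14.5% of all genes, so the first of these was near the share of all genes. They were 2, 1 and 3 without Sham replicate 2. With all libraries 0 were higher by edgeR, at an unadjusted p under 0.05 or by DESeq2. Some of their promoters carry the ER stress response element, the letters CCAAT and CCACG with 9 bases between them. On either strand it was present in 0.119% of all promoters (39 of 32851) and in those of 3 members, Hspa5, Hsp90b1 and Dnajc3. Short windows around it are shown for Hspa5 and Hsp90b1 and a longer one for Dnajc3, since these genes are the ones followed below; the element is in capitals. Hsp90b1 held 2 elements, of which the one nearer the start, which reads as the reverse complement, is shown; the other reads forward.
Hspa5 (chr2:34772019-34772048, plus strand): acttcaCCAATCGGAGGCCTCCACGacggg
Hsp90b1 (chr10:86705528-86705557, minus strand): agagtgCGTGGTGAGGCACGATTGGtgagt
Dnajc3 (chr14:118937812-118937931, plus strand): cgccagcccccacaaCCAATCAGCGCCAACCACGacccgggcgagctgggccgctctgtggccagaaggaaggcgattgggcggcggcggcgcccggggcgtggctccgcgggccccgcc
The element shown ended 47 bases before the RefSeq start of Hspa5, 89 before that of Hsp90b1 and 87 before that of Dnajc3. The Hspa5 window lies inside that gene's deposited coordinates (chr2:34771970-34777547). At 2-fold 1 ER member, Dnajc10, was called lower against Sham in 5/6 Nx-HPi-Lp, and the median log2 fold change of the 9 was -0.039; against 5/6 Nx-HPi-Hp the median was 0.41 and 0 of 9 passed with any fold by edgeR, with 3 at an unadjusted p under 0.05, 2 by DESeq2 and 1 by limma. Against 5/6 Nx-LPi-Lp the median was 0.35, with 2 higher with any fold, Hsp90b1 and Hspa13 (all genes 11.1%).

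Hspa5 (BiP), the HSP70 protein of the ER, was at 401, 419, 278 and 374 CPM in Sham, 203, 397, 467 and 246 in 5/6 Nx-HPi-Lp, 230.5, 146, 179 and 373 in 5/6 Nx-HPi-Hp and 215, 214, 263 and 268 in 5/6 Nx-LPi-Lp. The 5/6 Nx-HPi-Lp libraries spanned a wide range, with replicates 2 and 3 high and replicates 1 and 4 low, and no comparison of that group passed (adjusted p = 0.516, 0.396 and 0.256). In the same libraries the fibroblast markers summed to 2877, 12765, 5365 and 5109 CPM and the macrophage markers to 632, 2307, 1368 and 1161. Both were also highest in replicates 2 and 3, which were the most deeply sequenced of the group. The part of these cells and of depth in these values was not tested. Hsp90b1 (GRP94), the HSP90 protein of the ER, was at 307, 293, 193 and 272 CPM in Sham, 179, 267, 250.5 and 218 in 5/6 Nx-HPi-Lp, 157, 137, 128 and 254 in 5/6 Nx-HPi-Hp and 126, 152, 144 and 182 in 5/6 Nx-LPi-Lp. It was higher in 5/6 Nx-HPi-Lp than in 5/6 Nx-LPi-Lp by less than 2-fold (0.58 ± 0.17, adjusted p = 0.0369), with 1 5/6 Nx-HPi-Lp library overlapping, and did not pass without 5/6 Nx-LPi-Lp replicate 2 (0.55, adjusted p = 0.0757). Against Sham it did not pass in 5/6 Nx-HPi-Lp (-0.27 ± 0.17, adjusted p = 0.228) and was lower in 5/6 Nx-LPi-Lp (-0.80 ± 0.17, adjusted p = 0.00757). Hspa13, a microsomal HSP70 protein, was at 25.2, 28.04, 25.8 and 24.6 CPM in 5/6 Nx-HPi-Lp and 19.6, 14.6, 18.1 and 20.4 in 5/6 Nx-LPi-Lp (0.49 ± 0.14, adjusted p = 0.0391), with 25.7, 27.5, 25.1 and 20.0002 CPM in Sham and 16.5, 12.3, 9.53 and 20.1 in 5/6 Nx-HPi-Hp.

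The DNAJ partners of BiP behaved differently from each other. Dnajc10 (ERdj5), a disulfide reductase that prepares misfolded proteins for removal, was at 136, 166, 211 and 134 CPM in Sham, 70.5, 88.4, 83.9 and 71.5 in 5/6 Nx-HPi-Lp, 78.9, 62.7, 48.8 and 98.2 in 5/6 Nx-HPi-Hp and 74.3, 95.7, 100.1 and 108 in 5/6 Nx-LPi-Lp. All Sham libraries lay above all others, and the log2 fold change was -1.08 ± 0.15 in 5/6 Nx-HPi-Lp (adjusted p = 4.28e-04), -1.15 ± 0.24 in 5/6 Nx-HPi-Hp (adjusted p = 0.0106) and -0.76 ± 0.17 in 5/6 Nx-LPi-Lp (adjusted p = 0.0101). Dnajc3 (p58IPK), which binds clients of BiP, was at 95.2, 106, 91.8 and 88.95 CPM in Sham, 77.9, 119, 99.7 and 86.4 in 5/6 Nx-HPi-Lp, 67.9, 51.7, 54.8 and 88.2 in 5/6 Nx-HPi-Hp and 69.3, 67.5, 82.3 and 78.8 in 5/6 Nx-LPi-Lp; it did not pass against Sham in 5/6 Nx-HPi-Lp (-0.04 ± 0.13, adjusted p = 0.83). Dnajb11 (ERdj3) was at 54.2, 54.8, 46.5 and 53.1 CPM in Sham, 45.2, 82.5, 76.2 and 57.2 in 5/6 Nx-HPi-Lp, 45.1, 46.1, 47.98 and 57.97 in 5/6 Nx-HPi-Hp and 44.7, 48.1, 49.8 and 42.6 in 5/6 Nx-LPi-Lp. Its log2 fold changes in 5/6 Nx-HPi-Lp were 0.28 ± 0.17, 0.37 ± 0.20 and 0.48 ± 0.18 against the 3 groups and did not pass (adjusted p = 0.209, 0.229 and 0.0920). Dnajb9 (ERdj4), which restrains the stress sensor IRE1, was at 26.9, 31.04, 34.4 and 29.8 CPM in Sham, 25.8, 34.96, 34.9 and 33.8 in 5/6 Nx-HPi-Lp, 24.4, 17.1, 27.1 and 18.9 in 5/6 Nx-HPi-Hp and 36.4, 28.9, 32.3 and 26.5 in 5/6 Nx-LPi-Lp, and passed in none of the 3 comparisons (adjusted p = 0.802, 0.0729 and 0.860). The remaining ER members Dnajc1 and Dnajc25 had log2 fold changes against Sham of -0.54 ± 0.13 (adjusted p = 0.00650) and 0.18 ± 0.18 (adjusted p = 0.457).

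**Figure D4:**
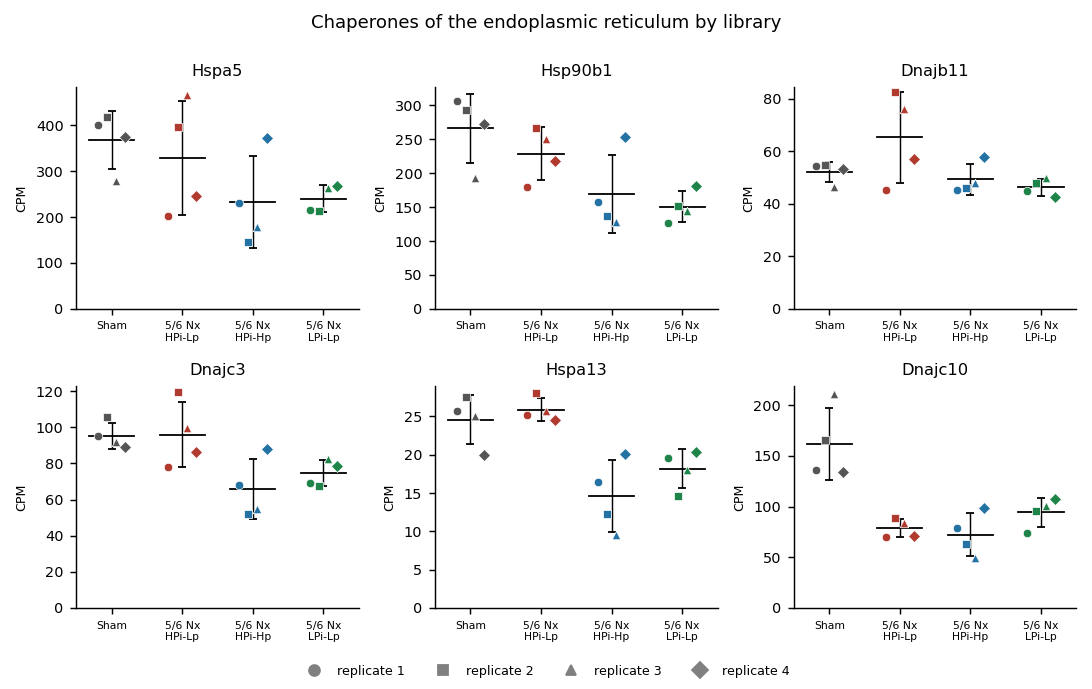
Level in CPM (linear axis from 0) of ER chaperones in each library; the marker shape gives the replicate, and the line and bars give the mean ± SD of 4 libraries. Dnajc10 was at 134 to 211 CPM in Sham and at 48.8 to 108 CPM in the other groups, while Hspa5 spanned 203 to 467 CPM within 5/6 Nx-HPi-Lp.

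Most mitochondrial chaperones were higher in 5/6 Nx-LPi-Lp than in Sham. Against Sham, 3 of 8 members passed with any fold as higher and 1 as lower in 5/6 Nx-HPi-Lp (median 0.25; all genes 22.7% and 20.2%), and 2 of 8 were higher in 5/6 Nx-HPi-Hp (median 0.54; all genes 17.5%). In 5/6 Nx-LPi-Lp 6 of 8 were higher (median 0.87; all genes 17.3%). Without Sham replicate 2 the higher ones were 3, 0 and 5 and the lower one did not pass. Between 5/6 Nx-HPi-Lp and 5/6 Nx-LPi-Lp all 8 had negative log2 fold changes (median -0.57), of which 2, Dnajc11 and Dnajc30, passed with any fold (all genes 8.96%). The summed level of the 8 was 492 ± 40.5 CPM in Sham, 725 ± 109 in 5/6 Nx-HPi-Lp, 754 ± 274 in 5/6 Nx-HPi-Hp and 1066 ± 372 in 5/6 Nx-LPi-Lp (SD, n = 4).

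Hspa9 (mortalin), the HSP70 protein of the mitochondrial matrix and of protein import, was at 136, 179, 175 and 154 CPM in Sham and 237, 295, 330.3 and 312 in 5/6 Nx-HPi-Lp. It reached 337, 202, 412 and 144 CPM in 5/6 Nx-HPi-Hp and 729, 392, 452 and 264 in 5/6 Nx-LPi-Lp. Sham was below all libraries of 5/6 Nx-HPi-Lp and 5/6 Nx-LPi-Lp, with log2 fold changes of 0.82 ± 0.13 (adjusted p = 7.98e-04) and 1.53 ± 0.27 (adjusted p = 0.00415). Between 5/6 Nx-HPi-Lp and 5/6 Nx-LPi-Lp the value of -0.67 ± 0.28 did not pass (adjusted p = 0.123). Dnaja3 (Tid1), its DNAJ partner, was at 40.4, 55.1, 53.8 and 45.1 CPM in Sham, 56.1, 71.5, 92.2 and 70.1 in 5/6 Nx-HPi-Lp, 98.4, 66.5, 111 and 41.8 in 5/6 Nx-HPi-Hp and 197, 102, 124 and 78.4 in 5/6 Nx-LPi-Lp. It was higher than in Sham by less than 2-fold in 5/6 Nx-HPi-Lp (0.53 ± 0.15, adjusted p = 0.0186) and was called in 5/6 Nx-LPi-Lp (1.38 ± 0.25, adjusted p = 0.00461). Dnaja3 overlaps Vasn on the same strand over 10814 bases, introns included, and Vasn had the larger mean count (4016.3 against 1755.3), so its value is uncertain.

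Dnajc15, an inner membrane protein of the import motor, was called higher than in Sham in all 3 nephrectomy groups. It was at 23.9, 27.2, 31.5 and 27.6 CPM in Sham, 41.03, 54.8, 64.2 and 82.8 in 5/6 Nx-HPi-Lp, 96.5, 49.7, 105 and 28.8 in 5/6 Nx-HPi-Hp and 117, 68.6, 79.9 and 48.8 in 5/6 Nx-LPi-Lp. The log2 fold changes were 1.10 ± 0.19 (adjusted p = 0.00156), 1.34 ± 0.34 (adjusted p = 0.0186) and 1.53 ± 0.23 (adjusted p = 0.00344), and 5/6 Nx-HPi-Hp replicate 4 lay inside the Sham range. The value in 5/6 Nx-HPi-Hp without Sham replicate 2 was 1.32 (adjusted p = 0.0550), so the fold change stayed near 1.34 while the adjusted p rose. Hspd1 and Hspe1, the subunits of the mitochondrial chaperonin, are transcribed away from each other from a shared start region, in which 285 of 300 promoter bases are common to both. A window of it, inside the deposited coordinates of Hspd1 (chr1:55077835-55088243), is shown because it holds 3 overlapping heat shock elements, in capitals.
Hspe1 (chr1:55088053-55088082, plus strand): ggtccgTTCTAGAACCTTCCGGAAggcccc
Hspd1 was at 91.4, 119, 94.6 and 98.3 CPM in Sham, 91.01, 129, 161 and 141 in 5/6 Nx-HPi-Lp, 176, 99.8, 188 and 86.6 in 5/6 Nx-HPi-Hp and 294, 149.8, 187 and 132 in 5/6 Nx-LPi-Lp. Hspe1 was at 65.1, 70.01, 62.7 and 70.5 CPM in Sham, 65.9, 71.97, 81.2 and 83.6 in 5/6 Nx-HPi-Lp, 86.6, 59.6, 100.03 and 57.5 in 5/6 Nx-HPi-Hp and 94.2, 81.6, 73.2 and 80.03 in 5/6 Nx-LPi-Lp. Neither passed in a comparison of 5/6 Nx-HPi-Lp, and both were higher in 5/6 Nx-LPi-Lp than in Sham by less than 2-fold (0.94 ± 0.23 and 0.31 ± 0.10, adjusted p = 0.0143 and 0.0386), the latter not without Sham replicate 2 (0.33, adjusted p = 0.0770).

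Fat markers, like the mitochondrial members, had higher mean sums in the nephrectomy groups than in Sham. Only the brown adipocyte markers had the members' order of group means. The adipocyte marker means were 6917 CPM in 5/6 Nx-HPi-Lp, 5825 in 5/6 Nx-HPi-Hp and 4173 in 5/6 Nx-LPi-Lp. This order was the reverse of that of the members' summed level in these groups. The 5 brown adipocyte markers summed to 303, 578, 518 and 611 CPM in Sham, 546, 1119.8, 1904 and 917 in 5/6 Nx-HPi-Lp, 1796, 924, 2325 and 675 in 5/6 Nx-HPi-Hp and 4396, 1079, 2785 and 2592 in 5/6 Nx-LPi-Lp. In 5/6 Nx-LPi-Lp replicate 1 was highest and in 5/6 Nx-HPi-Hp replicates 1 and 3 were, as they were for Hspa9, Hspd1, Dnaja3 and Dnajc15, but the lowest library of 5/6 Nx-LPi-Lp was replicate 2 for the markers and replicate 4 for these genes. Against Sham, 2 of the 5 were called higher in 5/6 Nx-HPi-Lp, 3 in 5/6 Nx-HPi-Hp and 4 in 5/6 Nx-LPi-Lp. The 6 adipocyte markers summed to 526, 832, 1292 and 855 CPM in Sham, 5827, 5433, 5377 and 11032 in 5/6 Nx-HPi-Lp, 7666, 3429.7, 10969 and 1237 in 5/6 Nx-HPi-Hp and 6849.6, 3469.6, 3881 and 2491 in 5/6 Nx-LPi-Lp. In the 5/6 Nx-HPi-Hp group, and likewise in the 5/6 Nx-LPi-Lp group, the 4 libraries stood in the same order for these markers and for Hspa9, Hspd1, Dnaja3 and Dnajc15, and in 5/6 Nx-HPi-Lp they did not. In Sham only Dnajc15 had the order of the markers, and Hspa9, Hspd1 and Dnaja3 did not. In each group 0 of the fat markers were at 0. The part of fat around the vessel in these values was not tested.

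**Figure D5:**
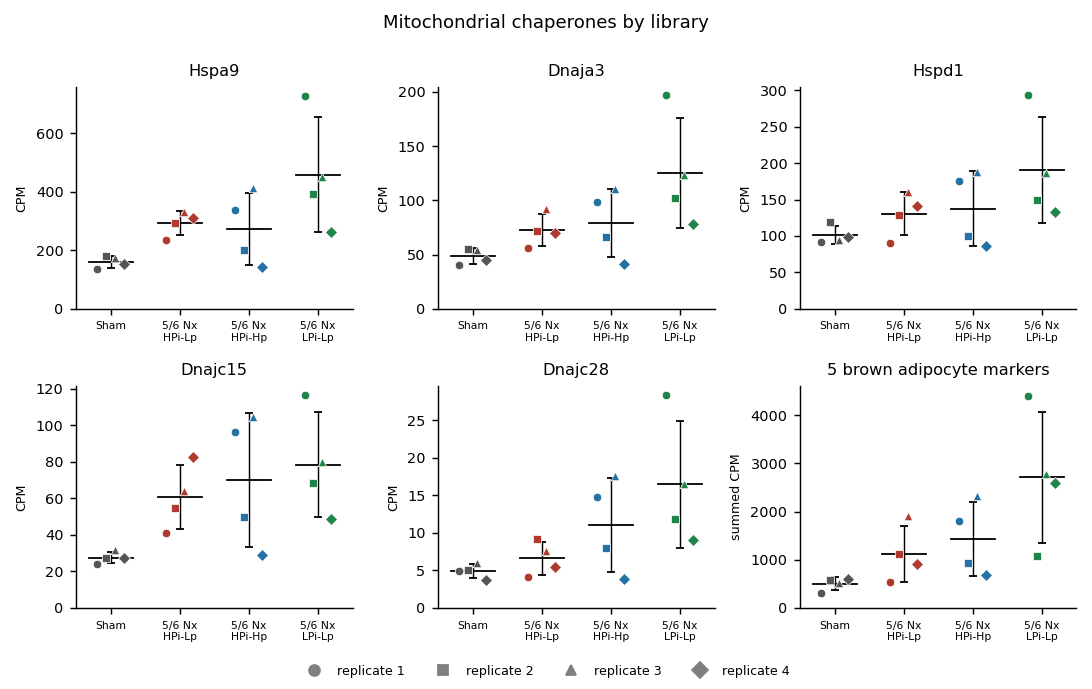
Level in CPM (linear axis from 0) of mitochondrial chaperones, Dnajc28 (not counted among them) and the summed brown adipocyte markers in each library. The marker shape gives the replicate, and the line and bars give the mean ± SD of 4 libraries. Hspa9 was at 136 to 179 CPM in Sham and at 264 to 729 CPM in 5/6 Nx-LPi-Lp, and the replicates of the 5/6 Nx-HPi-Hp group were far apart.

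The members called higher in 5/6 Nx-HPi-Lp than in Sham were, beside Dnajc15, Dnajc6 and Hspa12a. Dnajc6 (auxilin), which with Hspa8 strips clathrin from vesicles in nerve endings, was at 0.662, 0.674, 0.434 and 0.267 CPM in Sham and 19.1, 0.717, 3.17 and 12.5 in 5/6 Nx-HPi-Lp. It was at 2.06, 1.76, 0.313 and 2.18 CPM in 5/6 Nx-HPi-Hp and 1.15, 1.75, 0.667 and 2.61 in 5/6 Nx-LPi-Lp. Within 5/6 Nx-HPi-Lp replicates 1 and 4, the least deeply sequenced of the group, were high and replicate 2 was next to the Sham range. The part of depth was not tested. The log2 fold change against Sham was 4.08 ± 0.92 (adjusted p = 0.00588), with 8 of 8 fits keeping the call, while those against the other diets did not pass (2.45 ± 0.91 and 2.49 ± 0.88, adjusted p = 0.103 and 0.0722). The summed level of 6 sympathetic neuron markers was 1502, 56.5, 270.003 and 1079 CPM in the same 5/6 Nx-HPi-Lp libraries, 67.6 to 103 in Sham, 91.6 to 297 in 5/6 Nx-HPi-Hp and 61.5 to 219.5 in 5/6 Nx-LPi-Lp, with replicates 1 and 4 high as well. Of these markers 4 could be tested against Sham and 3 were called higher; their part in the level of Dnajc6 was not tested.

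Hspa12a, a distant relative of HSP70, was at 6.29, 6.61, 7.24 and 7.01 CPM in Sham, 36.4, 14.4, 11.1 and 31.4 in 5/6 Nx-HPi-Lp, 21.3, 10.2, 19.2 and 11.6 in 5/6 Nx-HPi-Hp and 17.1, 13.1, 11.3 and 8.86 in 5/6 Nx-LPi-Lp. All nephrectomy libraries were above all Sham libraries, and replicates 1 and 4 of 5/6 Nx-HPi-Lp, the least deeply sequenced of that group, were highest. The log2 fold change was 1.74 ± 0.37 in 5/6 Nx-HPi-Lp (adjusted p = 0.00399) and 1.20 ± 0.24 in 5/6 Nx-HPi-Hp (adjusted p = 0.0103), both called, and 0.91 ± 0.20 in 5/6 Nx-LPi-Lp (adjusted p = 0.00858). Dnajc12, a cochaperone of the enzymes that hydroxylate aromatic amino acids, had its highest levels in the same libraries, at 6.78, 2.24, 3.19 and 5.55 CPM in 5/6 Nx-HPi-Lp against 2.06, 2.57, 2.82 and 1.64 in Sham, but did not pass (0.92 ± 0.39, adjusted p = 0.0841).

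Dnajc4 and Hspb7 were the members called between 5/6 Nx-HPi-Lp and 5/6 Nx-HPi-Hp in all 8 fits with 1 library left out. Dnajc4 was at 47.9, 46.8, 48.9 and 47.7 CPM in Sham, 39.5, 34.96, 32.04 and 34.7 in 5/6 Nx-HPi-Lp, 72.4, 83.6, 72.9 and 64.2 in 5/6 Nx-HPi-Hp and 59.5, 69.4, 65.9 and 64.1 in 5/6 Nx-LPi-Lp. The 5/6 Nx-HPi-Lp libraries lay below Sham, and Sham below both other diets, with no overlap. In 5/6 Nx-HPi-Lp it was lower than in 5/6 Nx-HPi-Hp at 2-fold (-1.08 ± 0.14, adjusted p = 0.00374) and lower than in 5/6 Nx-LPi-Lp and Sham by less (-0.89 ± 0.11 and -0.48 ± 0.10, adjusted p = 0.00200 and 0.00357). Dnajc28 was at 4.86, 5.05, 5.99 and 3.73 CPM in Sham, 4.16, 9.22, 7.56 and 5.42 in 5/6 Nx-HPi-Lp, 14.7, 7.98, 17.5 and 3.79 in 5/6 Nx-HPi-Hp and 28.3, 11.9, 16.5 and 9.05 in 5/6 Nx-LPi-Lp. It was called lower in 5/6 Nx-HPi-Lp than in 5/6 Nx-LPi-Lp (-1.33 ± 0.38, adjusted p = 0.0375) with 1 library overlapping, and 3 of 8 fits kept the call. It was higher in 5/6 Nx-LPi-Lp than in Sham (1.76 ± 0.33, adjusted p = 0.00499), and was highest in the libraries with the highest brown adipocyte markers of their groups, 5/6 Nx-LPi-Lp replicate 1 and 5/6 Nx-HPi-Hp replicates 1 and 3; the part of these markers was not tested.

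The other DNAJ and HSP70 members stayed within 2-fold in the 3 comparisons of 5/6 Nx-HPi-Lp or did not pass. Against Sham the other 19 tested DNAJC members ran from Dnajc18 at -0.84 ± 0.10 (adjusted p = 1.53e-04) to Dnajc12 at 0.92, and those passing were Dnajc18, Dnajc8, which takes part in splicing (-0.71 ± 0.10, adjusted p = 3.39e-04), Dnajc27, Dnajc1 and Dnajc30 on the lower side and Dnajc2, a cochaperone on the ribosome (0.48 ± 0.15, adjusted p = 0.0237), on the higher side. The other DNAJB members ran from Dnajb2 at -0.91 ± 0.13 (adjusted p = 5.11e-04) to Dnajb3 at 1.16 ± 0.92 (adjusted p = 0.335). Dnajb2, which links clients to the proteasome, was also lower than in 5/6 Nx-HPi-Hp (-0.66 ± 0.18, adjusted p = 0.0370) and 5/6 Nx-LPi-Lp (-0.62 ± 0.15, adjusted p = 0.0193). The other DNAJA members, beside Dnaja3, ran from Dnaja4 at -0.28 ± 0.25 to Dnaja2 at -0.17 ± 0.12 and did not pass. Without Sham replicate 2, Dnajc27, Dnajc30, Dnajc2 and Hspa12b no longer passed against Sham. Of the other HSP70 members Hspa14 was at -0.04 ± 0.12 (adjusted p = 0.83), Hspa13 at 0.03 ± 0.12 (adjusted p = 0.843) and Hspa12b, an endothelial relative of Hspa12a, at 0.38 ± 0.10 (adjusted p = 0.0130).

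Dnajc9, a histone chaperone, was the member that was higher with any fold in 5/6 Nx-HPi-Lp against both other diets (0.80 ± 0.17 and 0.46 ± 0.14, adjusted p = 0.0172 and 0.0472), though not against Sham (-0.12 ± 0.12, adjusted p = 0.437). Against 5/6 Nx-HPi-Hp the other DNAJC members ran from Dnajc7 at -0.53 to Dnajc12 at 1.12, and against 5/6 Nx-LPi-Lp from Dnajc22 at -1.52 to Dnajc12 at 0.93, and the members at these ends did not pass. Hspbp1, an exchange factor of HSP70, was lower than in Sham by less than 2-fold (-0.51 ± 0.08, adjusted p = 0.00107), and Hspb11, which is a protein of intraflagellar transport, did not pass (-0.31 ± 0.19, adjusted p = 0.224).

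The nephrectomy groups on the other diets differed from Sham in further members. Those called lower were Hspb6, Hspa1a, Hspa1b, Hspa2, Dnajb4 and Dnajc10 in 5/6 Nx-HPi-Hp, and Hspa1a, Hspa1b, Hspa2, Hsph1 (-1.06 ± 0.29, adjusted p = 0.0219) and Dnajb4 in 5/6 Nx-LPi-Lp. The call of Hsph1 was lost without Sham replicate 2 (-0.76, adjusted p = 0.0577). Beside the members described above, the higher ones in 5/6 Nx-LPi-Lp were Dnajc22, Dnajb3, Dnajb13 and Dnajc6, all with few counts; Dnajc6 did not pass without Sham replicate 2 or 5/6 Nx-LPi-Lp replicate 2 (adjusted p = 0.0533 and 0.0515). Dnajc22 was at 6.50, 0.582, 3.93 and 2.08 CPM in 5/6 Nx-LPi-Lp against 0.258, 0.379, 0.304 and 0.267 in Sham (3.44 ± 0.65, adjusted p = 0.00505). Dnajb13 was at 1.97, 0.582, 1.04 and 1.52 CPM in 5/6 Nx-LPi-Lp and 0.976, 2.27, 0.938 and 0.675 in 5/6 Nx-HPi-Hp against 0.331, 0.379, 0.390 and 0.190 in Sham (2.00 ± 0.44 and 1.87 ± 0.50, adjusted p = 0.00936 and 0.0216), and without Sham replicate 2 it did not pass in 5/6 Nx-HPi-Hp (adjusted p = 0.0622). It shares 305 bases with Ucp2 on the opposite strand, whose mean count was 2822.6 against 22.2, so this value is uncertain. Dnajb3, at 2.18, 1.75, 1.26 and 1.47 CPM in 5/6 Nx-LPi-Lp against 0.184, 0.632, 0.434 and 0.0762 in Sham (2.35 ± 0.52, adjusted p = 0.00955), lies within the Ugt1a genes on the opposite strand, where the same uncertainty holds.

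All 73 members are accounted for by the filter: 65 were tested in all 5 comparisons, 6 in none, Dnajb13 in all but that of 5/6 Nx-HPi-Lp with Sham, and Dnajc22 in 3. The 6 were Hspb3, Hspb9, Dnajb7, Dnajb8, Dnajc5b and Dnajc5g. Dnajc5b had 1 count over all 16 libraries and Dnajc5g had 2. Hspb3, known from heart and skeletal muscle, had 0, 28, 1 and 0 counts in 5/6 Nx-LPi-Lp, the highest in the library with the high heart muscle markers, and 0 in each Sham library. Over all 5 comparisons 50 members were never called at 2-fold.

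The genes that work with the members were followed as 2 lists. Of 33 cochaperones of HSP70 and HSP90 and Hsf1 targets, 32 were tested; in 5/6 Nx-HPi-Lp against Sham 4 were called lower and 2 higher, beside 7.18% and 15.0% of all genes, and with any fold 15 lower and 3 higher, beside 20.2% and 22.7%, with a median log2 fold change of -0.26. Hsf1 itself had mean levels of 77.4 CPM in Sham, 48.04 in 5/6 Nx-HPi-Lp, 94.3 in 5/6 Nx-HPi-Hp and 75.4 in 5/6 Nx-LPi-Lp, lower than Sham by less than 2-fold (-0.73 ± 0.23, adjusted p = 0.0291) and lower than 5/6 Nx-HPi-Hp (-0.99 ± 0.27, adjusted p = 0.0388). Cryab, the small heat shock protein alpha B-crystallin, which the naming rule did not reach, was called lower than in Sham (-1.16 ± 0.14, adjusted p = 2.04e-04), and Bag2 and Fkbp4 were also among those called lower. Bag4 and Fkbp5 were called higher. Fkbp5, a cochaperone of HSP90 that glucocorticoids induce, had a mean of 51.9 CPM in Sham, 181 in 5/6 Nx-HPi-Lp, 33.6 in 5/6 Nx-HPi-Hp and 46.4 in 5/6 Nx-LPi-Lp, with log2 fold changes of 1.77 ± 0.45, 2.42 ± 0.22 and 1.96 ± 0.24 (adjusted p = 0.0101, 0.00115 and 0.00191). It was the 1 gene of this list called in each diet comparison, while 3 and 2 passed higher and 6 and 3 lower with any fold, first against 5/6 Nx-HPi-Hp, then against 5/6 Nx-LPi-Lp. The shares of all genes were 7.09% and 11.1% higher and 5.95% and 8.96% lower.

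Of 23 genes of ER folding and the unfolded protein response, 22 were tested, and 0 were called against Sham in 5/6 Nx-HPi-Lp by edgeR, DESeq2 or limma, nor at an unadjusted p under 0.05 with a 2-fold change. With any fold 1 was higher and 2 lower (median -0.11, all genes 22.7% and 20.2%). Against 5/6 Nx-HPi-Hp 2 passed as higher and 0 lower (median 0.42, all genes 7.09% and 5.95%), and against 5/6 Nx-LPi-Lp 6 higher and 0 lower (median 0.48, all genes 11.1% and 8.96%). Lower at an unadjusted p under 0.05 were 1 and 3 genes, of which DESeq2 passed 0 and 2. Xbp1, the transcription factor spliced by IRE1, had means of 150.1 CPM in Sham, 203 in 5/6 Nx-HPi-Lp, 127 in 5/6 Nx-HPi-Hp and 108 in 5/6 Nx-LPi-Lp, higher than in each of the other groups by less than 2-fold (0.39 ± 0.12, 0.66 ± 0.19 and 0.90 ± 0.13, adjusted p = 0.0264, 0.0475 and 0.00349). Sdf2l1, a partner of BiP and Dnajb11, was the 1 gene of the list called at 2-fold, higher in 5/6 Nx-HPi-Lp than in 5/6 Nx-LPi-Lp (1.70 ± 0.35, adjusted p = 0.0119). In 5/6 Nx-LPi-Lp 10 of the 22 were lower than in Sham with any fold (median -0.44, all genes 14.5%). In 5/6 Nx-HPi-Hp 4 were lower and 1 higher (median -0.46, all genes 13.9% and 17.5%), so the lower ones were near the share of all genes. For the first list these numbers were 8 lower and 2 higher in 5/6 Nx-LPi-Lp (median -0.17, all genes 14.5% and 17.3%), and 13 lower and 1 higher in 5/6 Nx-HPi-Hp (median -0.35, all genes 13.9% and 17.5%).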

How the data were processed

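RNA from the aortas of 16 mice, 4 per group, was sequenced, and groups were taken from the sample titles. The authors aligned reads to mm10 with HISAT2, counted reads per gene with featureCounts 1.5.0-p3 and deposited whole-number counts and FPKM values for 54532 genes. Strand setting and treatment of multiply mapped reads are not given in the sources used here, and 70 of the 73 members had the same coordinates in GENCODE release M21. FPKM served only for comparing levels between genes and as an alternative for the tests.

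Counts were tested with edgeR 4.0.16 (R 4.3.3): filterByExpr, TMM factors and the quasi-likelihood test on the 8 libraries of each comparison, with Benjamini-Hochberg adjustment over all genes tested, an adjusted p of at most 0.05 and a fold of at least 2. The study's methods name DESeq2 with these limits, which was run as an alternative (1.42.0), with limma 3.58.1 on log2 FPKM. Alternatives covered scaling, filters, gene sets tested, a replicate block and leaving out each library. The scripts were tested on simulated data first. Each library is a different mouse, so p-values measure the spread between mice. No column of other samples was found (0). Total counts were 13659525 to 57276915 a library. Replicates of a group differed by a chi-square of at least 20.0 per gene, so none looked like a repeated library.

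Values per library are given for members that passed the filter and were called at 2-fold in a comparison of 5/6 Nx-HPi-Lp (18 members) or were among 28 main members of their families; others are given by counts and range, with the lowest and highest of a family named. Other members shown with library values were chosen after their values were seen. The members and all gene lists were chosen with earlier results of these data known. Of 131 listed genes 2 were left out, Cct6a, which matched no row, and Ddit3, which matched 2, and a gene that entered the counts of a list is not reported here by name. Promoters came from RefSeq (GRCm38.p6; 32851 promoters of 27025 genes, 59 of 73 members matched). Summaries and figures used Python 3.11.15, pandas 2.3.3 and matplotlib 3.10.9.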

Additional observations from a re-analysis of the deposited data

Results flagged for a closer look

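Of 148 sets of 4 libraries, from 37 members in 4 groups, 9 held a library far from the other 3 (by Dixon's 95% limit on its gap to the nearest library over the whole range, which chance passes in about 1 of 20 sets). In Sham replicate 2, Hspa1a was at 191 CPM and Hspa1b at 203 CPM. In 5/6 Nx-HPi-Hp replicate 4, Hspb1 was at 399 CPM, Hsp90aa1 at 188 CPM and Hspa1a at 31.5 CPM, each the highest of its group. Dnajb3 was highest in 5/6 Nx-HPi-Hp replicate 3, at 3.36 CPM. Hsph1 was highest in 5/6 Nx-HPi-Lp replicate 3, at 88.1 CPM. The lowest libraries that stood apart were 5/6 Nx-HPi-Lp replicate 1 for Dnajb9, at 25.8 CPM, and 5/6 Nx-LPi-Lp replicate 1 for Hspb1, at 147 CPM.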

How the results depend on the processing

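The number of members called in 5/6 Nx-HPi-Lp against Sham was 15 and stayed between 13 and 16 when 1 library was left out; with no limit on the fold change it was 29. Against 5/6 Nx-HPi-Hp it was 5, with 1 in a test against a fold of 1.5, and 2 to 5 with 1 library left out (2 without 5/6 Nx-HPi-Lp replicate 4, 3 when 5/6 Nx-HPi-Hp replicate 2 was left out). Against 5/6 Nx-LPi-Lp it was 4, with 2 by limma on log2(FPKM + 1), 14 with no limit on the fold change, and 2 to 5 with 1 library left out (2 without 5/6 Nx-HPi-Lp replicate 4 or 5/6 Nx-LPi-Lp replicate 3). In 5/6 Nx-HPi-Hp against Sham 9 became 27 with no limit on the fold change, 0 in edgeR's test against a fold of 1.5 (15 at an unadjusted p under 0.05), and 4 to 18 with 1 library left out: 4 without Sham replicate 2, 5 without 5/6 Nx-HPi-Hp replicate 1 or 2 and 18 without replicate 4. In 5/6 Nx-LPi-Lp against Sham 13 became 6 by limma on log2(FPKM + 1), 33 with no limit on the fold change, 8 in the test against a fold of 1.5, and 8 to 12 with 1 library left out (8 without 5/6 Nx-LPi-Lp replicate 1).

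The replicate numbers did not pair the mice: correlations of same-numbered libraries' deviations from their group means ran from -0.27 to 0.19. The replicate block gave 15, 1, 2, 7 and 12 calls in these 5 comparisons in order, so only the counts between the diets moved by more than 1.5 times. The dependence of single members was followed in 76 pairs of a member and a comparison that passed with any fold. The members were the main members and those called in any comparison. Of 1502 alternative values, 1247 passed with any fold, 255 did not and 0 had another sign. These numbers do not describe the calls at 2-fold alone. Scaling to total counts, which include the mitochondrially encoded genes, moved the median log2 fold change of all genes to -0.14, -0.19 and -0.22 in the 3 comparisons with Sham and the higher and lower calls over all genes from 2480 and 1186 to 2225 and 1540, from 1495 and 437 to 972 and 892, and from 1413 and 335 to 1048 and 842. The cause of these changes was not tested beyond the construction of each alternative.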
